A study of Mus musculus with 2 samples.

Results

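The microRNA (miRNA) genes Mir297, Mir466, Mir467 and Mir669 form 4 related, repeat-rich families of the mouse genome, and most of their copies lie in an intron of Sfmbt2. Members were all genes of the deposited tables whose GENCODE M21 symbol is 1 of these 4 names, alone or followed by a letter or copy number. This gave 81 of 2202 miRNA genes, made up of 6 Mir297, 28 Mir466, 17 Mir467 and 30 Mir669 genes. The choice used symbols only, not read counts. Small RNA shorter than 30 nucleotides was sequenced from C2C12, a myoblast line of strain C3H obtained from ATCC, in 2 libraries that the labels number as biological replicates of a single group. The labels name no treatment or time, and the culture stage is not given, so the data hold no contrast between conditions. Both replicates come from the same established line.

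Sfmbt2 encodes a Polycomb-related protein and is an imprinted gene, read mainly from the paternal copy in extraembryonic tissue. The miRNA block in its intron is a rodent feature, built from repeated copies, and is known from placenta and embryonic stem cells. A miRNA is cut from a hairpin in the primary transcript and pairs with target mRNAs mainly through its seed, bases 2 to 8 from its 5′ end. In muscle biology, miR-669a has been reported to repress MyoD in cardiac progenitors.

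The families are built largely of alternating U-G and C-A bases, and many members share long stretches of sequence with others. RefSeq (GRCm38.p6) gave a mature sequence for 8 of the 81 members, all outside Sfmbt2. These are shown because they make the repeats visible in letters and because none of their genes had a read. Each is written 5′ to 3′ with the seed in capitals.
miR-466i-3p: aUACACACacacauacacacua
miR-466j: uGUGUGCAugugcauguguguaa
miR-466k: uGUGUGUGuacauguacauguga
miR-466q: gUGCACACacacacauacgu
miR-467f: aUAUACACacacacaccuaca
miR-467g: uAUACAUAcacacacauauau
miR-467h: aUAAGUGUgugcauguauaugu
miR-669n: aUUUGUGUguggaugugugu
The 8 sequences held 8 distinct seeds, so no 2 of them fall into a shared seed group, not even within Mir466 or Mir467. Of their neighbouring base pairs, 50% (miR-467g) to 78.9% (miR-466q) were U-G, G-U, C-A or A-C steps. The mature miR-467h also stood, letter for letter, in the hairpins of 2 miRNA genes outside the 4 families, and the other 7 in none. On GRCm38.p6, which is mm10, the mature sequences lie at chr13:17747552-17747573 (plus strand, miR-466i-3p), chr10:60960802-60960824 (plus, miR-466j), chr3:85467396-85467418 (plus, miR-466k) and chr3:28419988-28420007 (plus, miR-466q). Those of the other families lie at chr11:69635419-69635439 (minus, miR-467f), chr5:34732872-34732892 (minus, miR-467g), chr9:115381898-115381919 (plus, miR-467h) and chr3:115979905-115979924 (plus, miR-669n).

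Levels are counts on the strand of the gene per 1000000 such counts on all genes (CPM), which are not divided by length. The libraries held 27661907 and 15025315 such counts, which are 50.3% and 61.2% of their reads. Multi-mapping reads, kept in a row of their own, were 33.4% of the reads of replicate 1 and 22.8% of those of replicate 2. Mir21a alone took 23.1% and 53.5% of the counts, and this lowers the CPM of every other gene in replicate 2. Of the markers of the cell type, 3 of 8 muscle genes were detected. Mir206 stood at 2559 and 1028 CPM, Mir133b at 88.0 and 20.4 and Mir486 at 3.94 and 1.13. Mir499 had 21 and 6 reads, Mir1a-2 had 3 and 0, and Mir1a-1, Mir133a-1 and Mir133a-2 had 0. Reads that fit more than 1 copy of Mir1a or Mir133a may stand in the multi-mapping row. The counts of these copies therefore set no limit on miR-1a or miR-133a. Genes of the stem cell clusters of Mir290a and Mir302a, fixed as markers of pluripotent and trophoblast cells, summed to 0.904 and 0.532 CPM over the 10 of 11 that were matched. Of 5 blood genes, Mir142 stood at 215 and 122 CPM and Mir150 at 3.80 and 1.73, and the other 3 were below 1 CPM. The endothelial gene Mir126a stood at 213 and 134 CPM and the liver gene Mir122 at 3.90 and 1.26. The 6 neural genes, all copies of Mir124a or Mir9, summed to 0.0723 and 0 CPM. Reads that fit several of these copies may likewise be missing, so this sum sets no limit on their miRNAs. The part of other cell types in the members' levels was not tested. No other cell type was sampled for comparison.

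Reads assigned to the 4 families were a low share of the counts and rested on very few genes. Replicate 1 gave 40116 reads of the families and replicate 2 gave 10025, which is 0.145% (exact 95% interval 0.144 to 0.146) and 0.0667% (0.0654 to 0.0680) of the counts. The intervals cover counting error only, since no molecular identifiers tell copies of a molecule apart. In CPM, the sum was 1450 in replicate 1 and 667 in replicate 2. Of the 81 members, 9 were detected, which here means that each library had a CPM of 1 or more. Another 13 had a few reads, and 59 had 0 reads in both libraries. The share with no read, 72.8%, compares with 35.96% of the 1093 other genes with a Mir symbol and 63.5% of all 2202 genes. The share detected was 11.1%, against 27.7% and 14.5%. The median level of the detected members was 56.6 CPM, close to the 49.96 CPM of the detected genes among the other Mir genes.

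**Figure D1:**
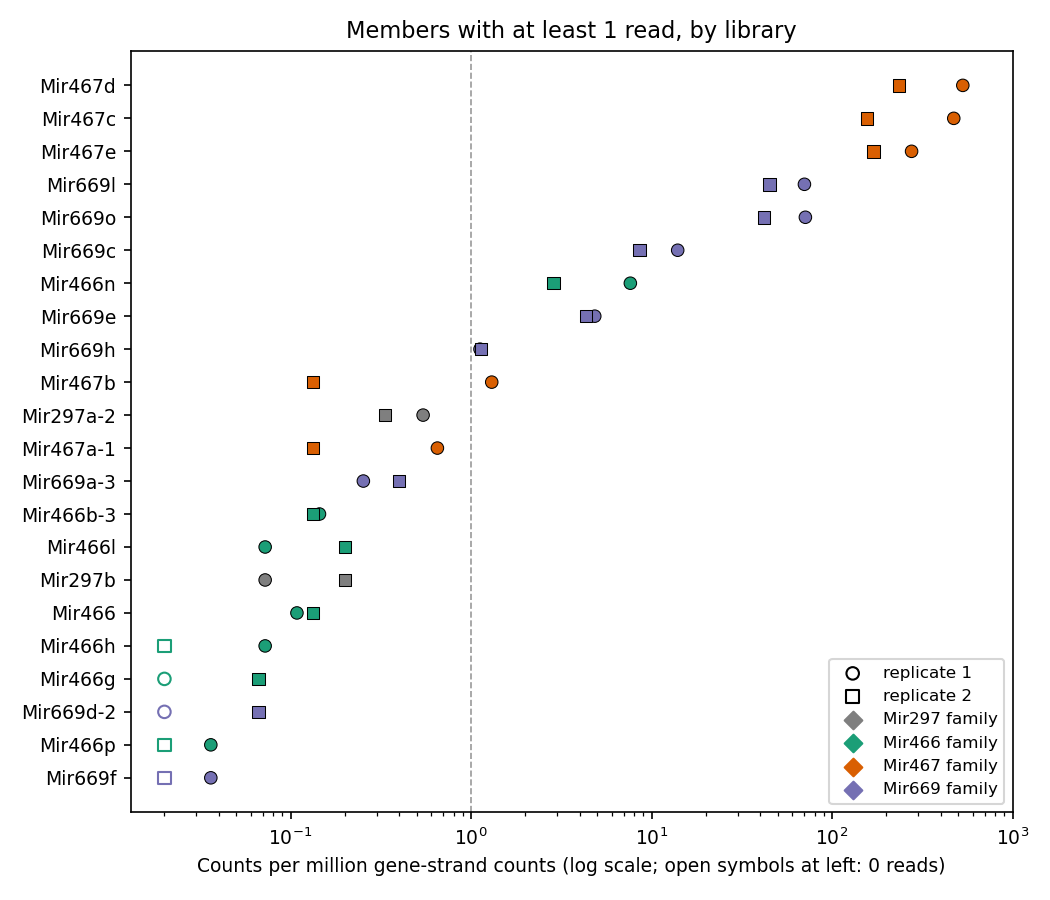
Level of each of the 22 members with at least 1 read (vertical axis) in CPM on a log axis, with circles for replicate 1, squares for replicate 2, colours for the families and open symbols at the left for a library with 0 reads. The dashed line marks 1 CPM, which 9 members reached in both libraries, and Mir467d, Mir467c and Mir467e lie to the right of all others.

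Mir467 led the families and Mir297 was the lowest. Mir467 held 88.3% and 84.2% of the members' reads (mean 86.2% ± 2.88, SD, n = 2), with 1280 CPM in replicate 1 and 562 in replicate 2. Mir669 followed with 11.1% and 15.2% of the members' reads, at 162 and 102 CPM. Mir466, with almost as many genes as Mir669, had 8.06 and 3.39 CPM, or 0.556% and 0.509% of the members' reads. Mir297 had 17 and 8 reads in all, or 0.615 and 0.532 CPM. The ranges of neighbouring families in this order did not overlap. Members share sequence within and between families, so these sums describe where reads were assigned, and copies are not replicates of each other.

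Nearly all reads assigned to Mir467 fell on 3 of its genes. Mir467d (chromosome 2, 10507630 to 10507714, plus strand, mm10) had 14661 reads in replicate 1 and 3535 in replicate 2, which is 530 and 235 CPM. Mir467c (10473931 to 10474027) had 13063 and 2346 reads, or 472 and 156 CPM. Mir467e (10505721 to 10505807) had 7627 and 2554 reads, or 276 and 170 CPM. Among all genes of the tables they ranked 94, 97 and 106 by mean CPM, at 383 ± 208, 314 ± 224 and 223 ± 74.8 CPM (SD, n = 2 for each). Mir467d was the highest of the 3 in each library, and the order of Mir467c and Mir467e changed between the libraries. The ranges of all 3 genes overlapped, and each gene had a lower CPM in replicate 2. miR-467 has been reported in mice as a regulator of thrombospondin-1, an inhibitor of vessel growth. The remaining Mir467 genes were near or at 0. Mir467b had 36 reads in replicate 1 and 2 in replicate 2, at 1.30 and 0.133 CPM, so that replicate 1 alone passed the detection limit. Of the 10 Mir467a copies, 9 had 0 reads and Mir467a-1 had 18 and 2. None of the 10 has a 20-base hairpin stretch that is absent from all other miRNA genes, so their counts set no limit on them.

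In Mir669, 5 of 30 genes were detected. Mir669l (chromosome 2, 10468971 to 10469068) had 1944 and 677 reads, or 70.3 and 45.1 CPM. Mir669o (10514300 to 10514395) had 1968 and 632 reads, or 71.1 and 42.1 CPM. These 2 hairpins lie near opposite ends of the intronic block, yet their levels could not be told apart within the spread of the libraries. Mir669c followed with 14.0 and 8.59 CPM and Mir669e with 4.84 and 4.33 CPM. Mir669h, the detected member closest to the limit, had 31 and 17 reads, or 1.12 and 1.13 CPM. The 12 Mir669a copies, the ones tied to MyoD in the literature, had 7 reads in replicate 1 and 6 in replicate 2, all on Mir669a-3. In 11 of the 12, no 20-base stretch of the hairpin is absent from all other miRNA genes. Their counts of 0 therefore set no limit on the level of miR-669a.

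Mir466 is the second largest of the 4 families, and a single gene of it was detected. Mir466n (chromosome 2, 10513741 to 10513834) had 211 and 43 reads, or 7.63 and 2.86 CPM. Of the other Mir466 genes, 6 had between 1 and 6 reads over both libraries: Mir466b-3 had 4 and 2 reads, Mir466 had 3 and 2, Mir466l had 2 and 3, Mir466h had 2 and 0, Mir466g had 0 and 1, and Mir466p had 1 and 0. miR-466l is known for stabilising the mRNA of interleukin 10 in macrophages, and miR-466h as a proapoptotic miRNA in hamster cell culture. The other 21 Mir466 genes had no read. In Mir297 no gene was detected, and Mir297a-2 with 15 and 5 reads and Mir297b with 2 and 3 held all of its reads.

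Every read assigned to a gene of the 4 families fell in the intron of Sfmbt2. Sfmbt2 spans positions 10370510 to 10595253 of chromosome 2 on the plus strand of mm10, and 71 of the 81 members lie within it on its strand, between 10466663 and 10518279. All 71 sit in a single intron of 62472 bases, intron 10 or 11 depending on the annotated transcript, and none overlaps an annotated exon of Sfmbt2. The 71 members took 100% of the families' assigned reads in both libraries. Multi-mapping reads are not split by gene, so how many belong to members inside or outside Sfmbt2 is unknown. Of the 71, 9 were detected, 13 more had a read and 49 had none. The level of Sfmbt2 mRNA is not measured in libraries of this RNA size.

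**Figure D2:**
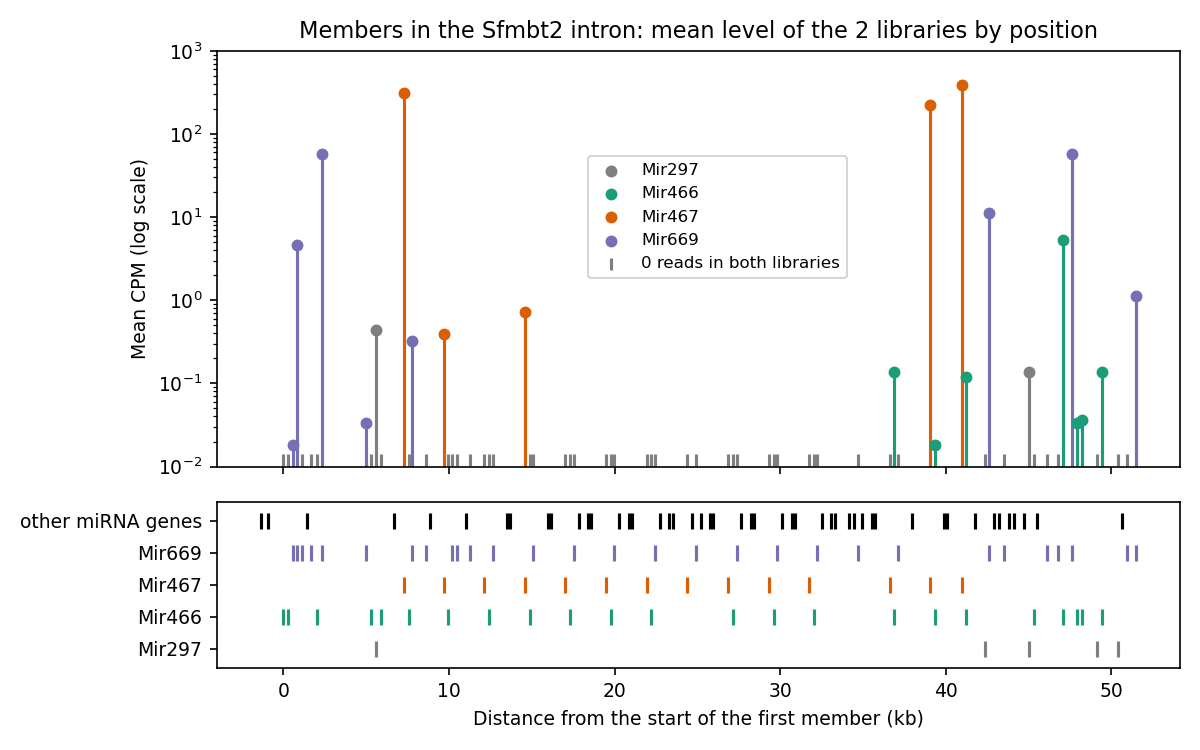
Mean CPM of the 2 libraries on a log axis (upper panel) for the 71 members in the Sfmbt2 intron, against distance in kb from the start of the first member, with ticks at the bottom for the 49 members with 0 reads in both libraries. The lower panel marks the position of each member by family and of the 48 other miRNA genes of the locus; detected members stand at both ends of the block, which spans 51.6 kb, and none in its middle.

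Nearly all reads were assigned to the ends of the block, and few to its repeated middle. The middle is a tandem array in which Mir467a starts follow each other at a median distance of 2.46 kb (range 2.41 to 4.88 over 9 gaps). From the first to the last Mir467a copy lie 33 members, with only 54 reads in replicate 1 and 4 in replicate 2. Those reads fell on Mir467b and Mir467a-1 alone, and the other 31 had none. Of these 33 hairpins, 29 have no 20-base stretch that is absent from all other miRNA genes, against 1 of 16 before the array and 2 of 22 after it, so the counts show where reads were assigned and set no limit on those 29. The 16 members before the array had 15164 and 3100 reads, 37.8% and 30.9% of the families' reads, with Mir467c, Mir669l and Mir669e detected. The 22 members after it had 24898 and 6921 reads, 62.1% and 69.0%, with Mir467d, Mir467e, Mir669o, Mir669c, Mir466n and Mir669h detected. The array was delimited by the Mir467a names, and this division was chosen after the values had been seen.

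Some direct neighbours in the block differed by orders of magnitude. Mir467d and Mir466 are 203 bases apart, with 14661 and 3535 reads on the first against 3 and 2 on the second. Mir467e and Mir466p are 198 bases apart, with 7627 and 2554 reads against 1 and 0. Mir467c and Mir466b-1 are 191 bases apart, with 13063 and 2346 reads against 0 in both libraries. In each of these 3 pairs the Mir467 hairpin was high and the following Mir466 hairpin was at or near 0 in both libraries. Mir466b-1 has no such 20-base stretch of its own, while 37.1% of those of Mir466p and 37.0% of those of Mir466 are their own. These shares are of the whole hairpin, so reads from its shared parts may be left out of the counts. Mir669o, with 1968 and 632 reads, lies 199 bases before Mir466g with 0 and 1.

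The 10 members outside Sfmbt2 had 0 reads in both libraries. They are Mir466f-4, Mir466i, Mir466j, Mir466k, Mir466q, Mir467f, Mir467g, Mir467h, Mir669n and Mir297-1, and they lie on 7 chromosomes. A count of 0 allows up to 3 counts, or 0.108 CPM in replicate 1 and 0.2 CPM in replicate 2, for reads that can be assigned to a single place. The mature miR-467h also stands in the hairpins of 2 other miRNA genes, so this limit does not cover it. The genome was not searched for the other outside sequences, so whether the limit covers them is not known. Mir466q lies in Tnik on its strand, and the other 9 have no annotated host gene on their strand. Their hairpins hold longer simple repeats than the intronic block: the longest run of TG, GT, CA or AC pairs had a median of 6.5 and a maximum of 14 pairs (Mir466q), against a median of 4 and a maximum of 7 among the 49 members with no read inside Sfmbt2. For the 10 outside members, a median of 210.5 other genes in GENCODE M21 (range 1 to 4036, highest for Mir466i) had a transcript with a 20-base stretch of the hairpin, against a median of 4 (range 1 to 267) for the detected members. Among the detected members the run was between 4 pairs and the 7 pairs of Mir669c and Mir669h.

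How far a read can be assigned to 1 member depends on the sequence it shares with others, so each hairpin of the annotation was compared with all miRNA genes of the tables. The measure was the share of its windows of 20 bases found, on either strand, in no other miRNA gene. In 32 of the 81 members no such window existed, and all 32 lie inside Sfmbt2. Of these 32, 31 had 0 reads. The exception was Mir467a-1 with 18 and 2 reads, although its whole 73-base hairpin stands within the hairpin of Mir467a-2. In 24 members the whole hairpin was identical to that of another, in 6 groups of which the largest was Mir669a-4 to Mir669a-12 with 9 copies, and none of the 24 had a read. A count of 0 therefore sets no limit on the miRNAs of these copies.

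The remaining 49 members each had windows of their own, and 28 of them had 0 reads as well. Within Sfmbt2, 21 of 39 such members had a read, and 9 were detected. Outside it, 0 of 10 had a read, with a median of 70.0% own windows against 37.3% for the 39. This share counts other miRNA genes only, and the rest of the genome was not searched. A median of 210.5 other genes had a transcript with a 20-base stretch of the 10 outside hairpins, against 4 for the detected members. Within the block, the members with the most reads had middling shares of own windows, and those with the highest shares varied in reads. Mir467d had 37.9% own windows, Mir467e 57.4% and Mir467c 60.3%. Mir669e had 95% and the 4.84 and 4.33 CPM given above. Mir466g had 100% own windows and a single read, Mir466h 93.5% and 2 reads, and Mir669b 87.2% and none. Mir466l had 85.3% with 2 and 3 reads, while Mir669c had 81.1% with 386 and 129 reads and was detected. The longest stretch shared with another member was 18 bases for Mir669e and between 26 and 60 bases for the other 8 detected members. Against all miRNA genes, Mir669e had 95 own windows of 98 at 22 bases, so it also shares some stretches of that length. The level of each of the 9 detected members may therefore leave out reads that fit another gene. The part that such reads play in the counts was not tested.

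**Figure D3:**
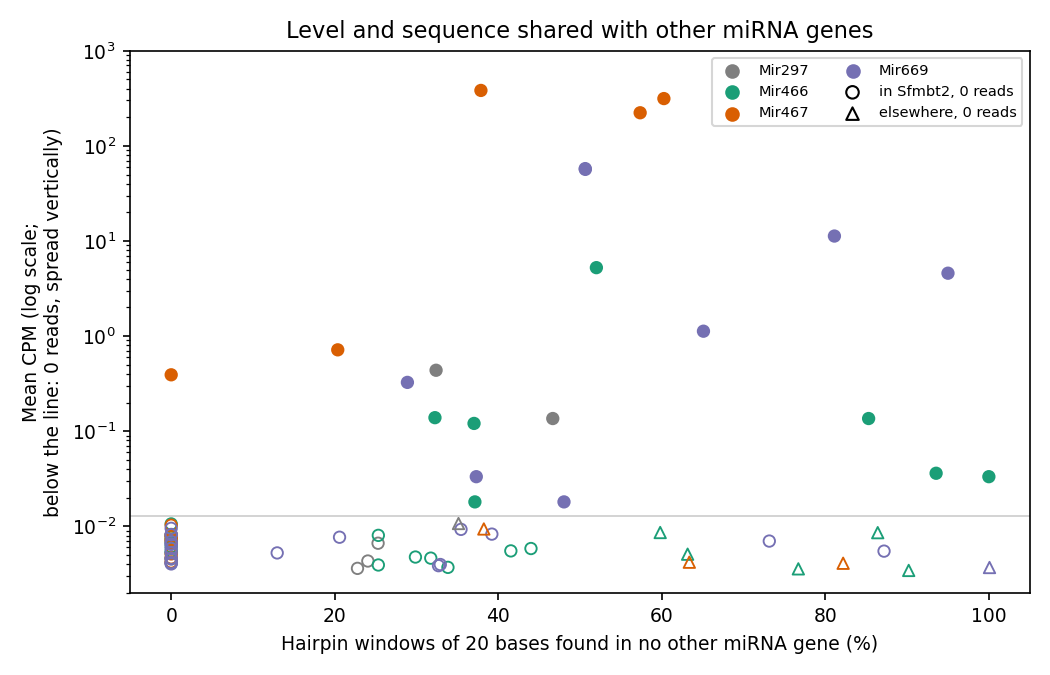
Mean CPM of each of the 81 members on a log axis against the share of its 20-base hairpin windows found in no other miRNA gene, with colours for families, circles for members in Sfmbt2 and triangles for those elsewhere. Open symbols below the line had 0 reads, at heights that carry no meaning; of the 32 members at 0% only Mir467a-1 had a read, and none of the 10 triangles had one.

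For comparison, among the 1093 other genes with a Mir symbol only 18 had no window of their own, and all 18 had 0 reads. Of the 1075 with own windows, 34.9% had 0 reads in both libraries, against 57.1% of the 49 members. These groups are not alike, with a median of 100% own windows for the 1075 genes and 41.5% for the 49 members. The Sfmbt2 locus also holds 48 miRNA genes without one of the 4 names, all Gm predictions. Replicate 1 gave 14 reads of these genes and replicate 2 gave 0, spread over 7 genes, with 3 reads at most on Gm22072 and Gm22239. Of these 48, 22 had no window of their own. Among them, Gm25285 is listed in RefSeq under the synonym Mir466c-3 and had 0 reads, and it was not counted as a member. No read was counted on the opposite strand of any member in either library.

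The libraries were compared with each other to see how evenly the members were recovered. After trimmed-mean (TMM) scaling in edgeR, a two-sided exact binomial test was run on each gene with 10 counts or more, and p was adjusted by Benjamini-Hochberg over these 556 genes. It called 6 of the 13 members tested. Over all genes the share called was 41.5%, so the members' count is near the background. The test compares 2 libraries, not conditions, and asks only whether they differ beyond counting noise. The median log2 ratio of replicate 2 over replicate 1 was 0.20 for the 13 members and 0.09 for all 556 genes.

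Mir467c and Mir467d were lower in replicate 2, and Mir467e was higher. Their log2 ratios were -0.70 (counting SE 0.03), -0.27 (0.03) and 0.20 (0.03), with adjusted p = 3.11e-114, 3.16e-24 and 8.69e-09 by the exact binomial test. Mir669l at 0.26 (SE 0.06, adjusted p = 0.00028, exact binomial test) and Mir669e at 0.74 (SE 0.22, adjusted p = 0.00351) were also called higher. Mir467b, with 36 and 2 reads, had the lowest ratio at -2.09 (SE 0.94, adjusted p = 0.0169, exact binomial test). Mir669a-3 and Mir669h had the highest ratios, 1.57 (SE 0.77) and 0.93 (SE 0.43), and did not pass (adjusted p = 0.177 and 0.0872, exact binomial test). Of the 6 calls, 3 were higher and 3 lower in replicate 2, where over all genes 24.6% were called higher and 16.9% lower. With DESeq2 size factors 1 member was called higher and 4 lower, against 19.1% and 23.2% of all genes (42.3% in all). By library totals 0 members were called higher and 9 lower, against 4.68% and 54.7% (59.4% in all). Under library totals Mir467e, Mir669l and Mir669e had ratios of -0.70, -0.64 and -0.16, since that scaling moves every ratio by -0.90.

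The called ratios were set against the spread between the libraries. The SD of the log2 ratio over the 204 other genes whose mean was 10 CPM or more was 0.85, and the common coefficient of variation of 34.3% in edgeR implies an SD of 0.70. Of the 6 called ratios, that of Mir467b was larger than both values, and that of Mir669e, at 0.74, was larger than the second only. Neither value is matched to these 2 genes, whose means were 0.717 and 4.59 CPM, below the 10 CPM of the first. The second leaves out counting error, an SE of 0.94 for Mir467b and 0.22 for Mir669e. Whether these 2 ratios exceed the spread of genes with as few reads was not tested. Ratios between members of the same library do not depend on the scaling. Mir467c stood at 1.71 times Mir467e in replicate 1 and 0.919 times in replicate 2, a log2 change of -0.90 (counting SE 0.05). Mir467d over Mir467e was 1.92 and 1.38. Mir669o over Mir669l was 1.01 and 0.934, a log2 change of -0.12 (counting SE 0.09).

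**Figure D4:**
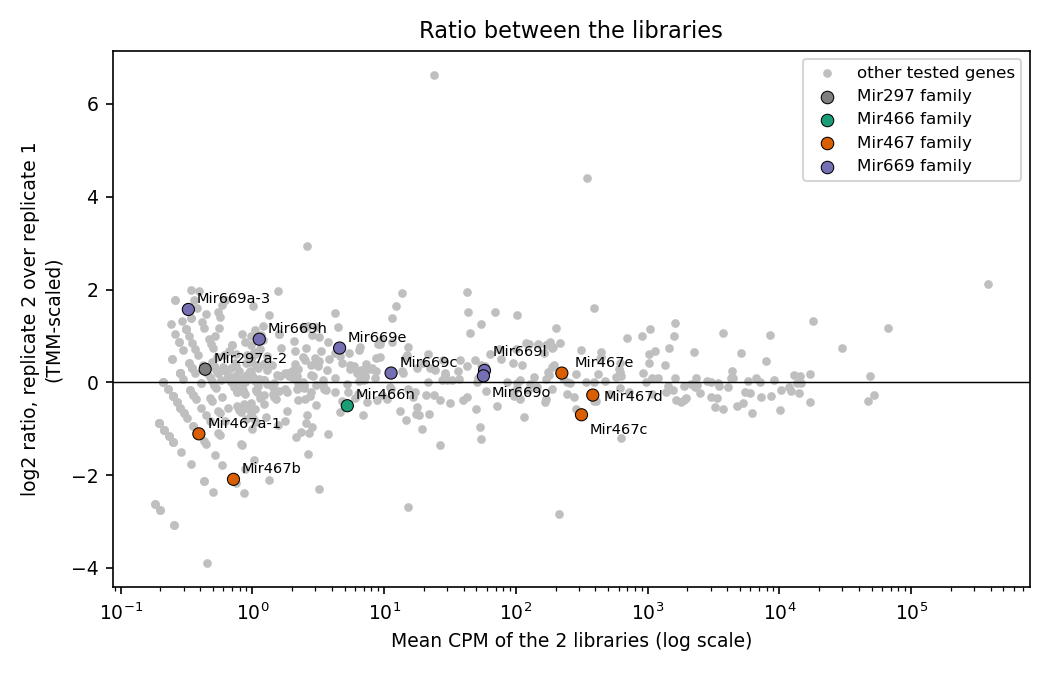
TMM-scaled log2 ratio of replicate 2 over replicate 1 (vertical axis) against mean CPM on a log axis for the 556 tested genes, with the 13 members in family colours and other genes in grey. The named members lie within the grey cloud, with Mir467b lowest at -2.09 and Mir669a-3 highest at 1.57, both from few reads.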

How the data were processed

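MicroRNA-seq of 2 C2C12 libraries was analysed. Per the labels and the deposited readme files, RNA under 30 nucleotides was counted on mm10 with GENCODE M21. No aligner or counter is named in the sources used here. The authors deposited whole-number read counts per hairpin gene in 3 columns: either strand, gene strand and opposite strand, as read from the values. The gene-strand column was used. It does not separate hairpin arms. Rows that name no gene held 49.7% and 38.8% of the reads and stayed out of totals and tests. Multi-mapping reads have their own row, so near-identical genes may be understated.

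All 2202 gene identifiers matched GENCODE M21, which gave symbols, positions and hairpins. Members and lists were chosen with earlier results of these data known. Named members were the 10 highest, up to 3 of each family, the 3 largest ratios in each direction, the members next to the detection limit and those with the longest or shortest pair runs. Neighbours of detected members and members at or near 0 were named after their values were seen. A search for stretches found once in the genome was planned; windows were compared among annotated miRNA genes instead.

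TMM factors came from edgeR 4.0.16 (R 4.3.3) on genes with at least 10 counts, and DESeq2 1.42.0 size factors and library totals were alternatives. Log2 ratios carry a prior count of 0.5. The call threshold was an adjusted p of 0.05. Intervals are exact (Clopper-Pearson). The binomial test was tested on simulated counts with counting noise only, so its behaviour under the wider spread between these libraries was not tested. Other alternatives were denominators, detection limits, count filters, counts of either strand, window lengths and leaving out each library.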

Additional observations from a re-analysis of the deposited data

Results flagged for a closer look

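Reads outside the gene counts included 18382947 multi-mapping reads in replicate 1 and 5599235 in replicate 2, in a row that the comparisons do not use. They are not split by gene, so the number that belongs to the 4 families is unknown. Their part in the counts of the 32 members with no window of their own was not tested.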

How the results depend on the processing

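The sum of the 4 families was 1059 CPM on average, 1660 when Mir21a was left out of the total, 568 per 1000000 of all reads, and 667 and 1450 with a single library. The number of members detected was 9, and 5 with a limit of 10 CPM, 17 with at least 1 read in both and 22 with at least 1 read in either. With a single library it was 9 and 10. The share of reads inside Sfmbt2 could not move from 100%, since members elsewhere had 0 reads, and 49 members had own windows at 18, 20 and 22 bases. This count was also 49 against all GENCODE transcripts, an alternative chosen after seeing the data. The members called between the libraries numbered 6 with TMM, 5 with DESeq2 size factors and 9 with library totals. With DESeq2 size factors 1 was higher and 4 lower, and Mir467e and Mir669l at 0.07 and 0.13 no longer passed. With library totals the ratios changed sign for Mir669o (-0.76), Mir467e (-0.70), Mir669c (-0.70), Mir669l (-0.64), Mir297a-2 (-0.61) and Mir669e (-0.16). This follows from the scaling, which moves every log2 ratio by -0.90. Mir466n, at -0.50 with TMM, passed with DESeq2 size factors at -0.63, with library totals at -1.40 and over genes of 50 counts or more at -0.54. The planned search for stretches found once in the genome was not run. No paired analysis was possible because there is a single group. A member below about 3 counts in a library cannot be told from 0.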
